A study of Bos taurus with 21 samples.

Results

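Enzyme genes of glycolysis and their regulator HIF1A were followed in the milk somatic cells of 21 Holstein cows. The list held 10 symbols, which were LDHA, LDHB, PGK1, ALDOA, ENO1, GAPDH, TPI1, PGAM1, HK2 and HIF1A, and it was taken by symbol from the count tables of 13570 gene rows. Of the 10 symbols, 9 had a row and 8 had a mean of at least 10 counts per cow. HK2, a hexokinase, was the symbol without a row and is not analysed here. The cows belonged to the high yielding group (HY, 9 cows) or the low yielding group (LY, 12 cows), and the labels name the same breed and no treatment for all of them. The groups follow the breeding value of milk yield, for which no unit is given, and it lay between 181 and 468 for the HY cows and between -404 and 86.9 for the LY cows. Both groups were in parity 2 to 4. HY cows had been in lactation for 41 to 268 days and LY cows for 52 to 270 days.

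Glycolysis breaks glucose down to pyruvate in the cytosol. ALDOA splits the sugar, TPI1 interconverts the resulting triose phosphates, GAPDH oxidises one of them, PGK1 yields ATP, and PGAM1 and ENO1 lead to the substrate of pyruvate kinase. Lactate dehydrogenase is a tetramer of LDHA and LDHB subunits, of which LDHA is classically linked to lactate formation and LDHB to lactate use. HIF1A is the oxygen-regulated subunit of a transcription factor that activates most of these enzyme genes, and it is controlled to a large extent at the protein level, which RNA counts do not show. Neutrophils and activated macrophages, which make up much of the leukocytes in milk, depend heavily on glycolysis, whereas the secretory epithelial cell spends much of its glucose on lactose.

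Each library was a mixture of cells. The libraries held between 7878557 and 28541904 gene counts, and the 4 casein genes took from 0.0876% to 44.2% of them. The caseins took more than 10% of the counts in 10 libraries, of which 4 were HY and 6 were LY. HY cow 3280 had a casein share of 33.6%, below the 44.2% of HY cow 3262, and the lowest neutrophil marker score of all cows. The markers of neutrophils summed to between 1725 and 13525 CPM, which are read counts scaled to a common library size, in HY and between 3171 and 11678 in LY, those of macrophages to between 1185 and 5688 and between 1534 and 4614, and those of T cells to between 93.9 and 905 and between 84.7 and 1498. B cell markers summed to between 2.36 and 100.5 CPM in HY and between 2.75 and 31.4 in LY. Epithelial markers summed to between 38.4 and 4828 in HY and between 171 and 2261 in LY. Erythrocyte markers summed to at most 0.875 CPM, with HBB at 0 in all cows. The neutrophil receptor gene CXCR1 was also at 0, and CSF3R, MARCO, MRC1 and CD79B had no row. In such bulk samples, fewer cells of a type and less RNA per cell cannot be told apart.

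All levels are CPM, scaled with the TMM factors of edgeR, and they are compared between cows and not between genes, because no transcript lengths were used. HIF1A ranged in HY from 608 CPM in cow 3280 to 1749 CPM in cow 3235, with a median of 950. In LY it ranged from 505 to 1442 CPM with a median of 831. The groups overlapped between 608 and 1442 CPM, and the highest level was 3.46-fold the lowest.

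The enzymes of the upper and middle steps varied more. ALDOA ranged from 1150 to 2972 CPM with a median of 2262 in HY, and from 715 to 5101 CPM with a median of 1407 in LY. TPI1 ranged from 322 to 1795 CPM with a median of 819 in HY, and from 338 to 2134 CPM with a median of 658 in LY. Both groups overlapped, and LY cow 7643 held the highest level of both genes. PGK1 ranged from 394 to 2340 CPM with a median of 1229 in HY, and from 694 to 1962 CPM with a median of 1101 in LY. The low end of PGK1 was again HY cow 3280, and the next HY cow stood at 864 CPM.

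Of the later steps, ENO1 varied widely and PGAM1 less so, with a range of 3.95-fold over all cows. PGAM1 ranged from 921 to 1926 CPM with a median of 1299 in HY, and from 494 to 1953 CPM with a median of 994 in LY. ENO1 ranged from 902 to 5292 CPM with a median of 2941 in HY, and from 1086 to 7360 CPM with a median of 2095 in LY. ENO1 had the widest range of the 8 genes, 8.16-fold, and its ends were HY cow 3280 and LY cow 7643.

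Of the lactate dehydrogenase genes, LDHB was steadier than the other enzymes, and LDHA, with a range of 3.87-fold over all cows, was close to PGAM1. LDHA ranged from 494 to 1181 CPM with a median of 816 in HY, and from 312 to 1206 CPM with a median of 638 in LY. LDHB ranged from 522 to 886 CPM with a median of 763 in HY, and from 418 to 716 CPM with a median of 591 in LY. The range of LDHB over all cows was only 2.12-fold. Among 8283 genes with a mean of at least 50 counts, 1.65% had a smaller standard deviation of the log2 level than LDHB, against 19.5% for HIF1A, 32.5% for LDHA, 36.3% for PGAM1, 49.0% for PGK1, 61.1% for ALDOA, 67.5% for ENO1 and 68.6% for TPI1. LDHB was thus near the steady end of all genes, while TPI1 and ENO1 lay above the middle.

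GAPDH, an enzyme that nearly every cell uses, was listed with 0 counts in 19 of the 21 cows. It had 3 counts in LY cow 7598 and 6 counts in LY cow 7643. A count of 0 allows up to 3 counts, which is between 0.0826 and 0.589 CPM depending on the library, and no fold or test was made for GAPDH. Reads that aligned to more than 1 place were set aside in the deposited tables and came to between 21.6% and 27.5% of all reads listed there. Their part in the GAPDH counts was not tested. Glycolysis genes have processed copies in mammalian genomes, so the levels of the other enzymes are uncertain to the extent that such copies share their reads.

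**Figure D1:**
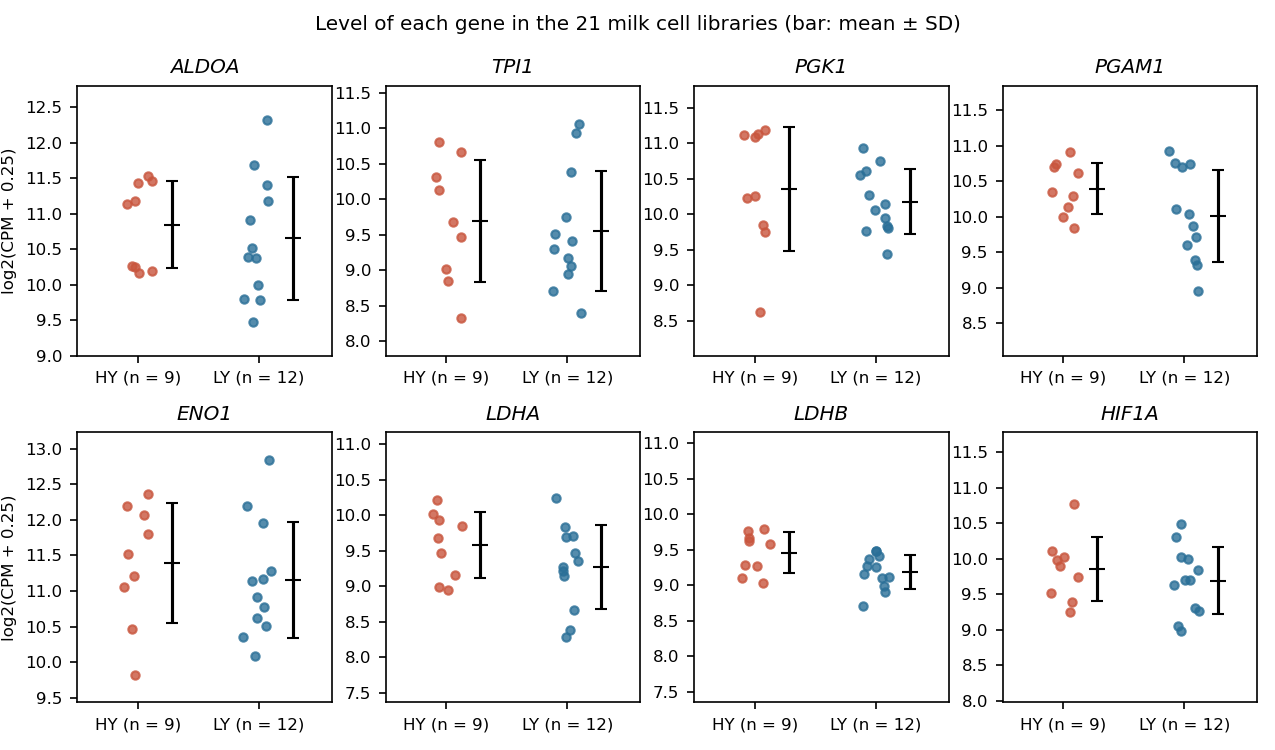
Level of each gene, as log2(CPM + 0.25) on the vertical axis, in the 9 HY and 12 LY libraries (points), with the mean and SD of each group as bars. The groups overlap in all 8 panels, and LDHB has the narrowest spread.

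The same cows tended to be low or high in several enzymes. LY cow 3264 was among the lowest 3 cows in 7 of 7 enzymes, and its caseins took 26.8% of the counts. LY cow 2864 was among the lowest 3 in 5 enzymes, with a casein share of 24.7%. At the other end, LY cow 7643 and HY cow 2814 were each among the highest 3 in 4 enzymes, and their casein shares were 0.164% and 0.141%. Other cows did not keep to this order. HY cow 3280 was among the lowest 3 in 3 enzymes and had the highest LDHB level of all cows. LY cow 3272 was among the lowest 3 in 3 enzymes with a casein share of 2.71%, and HY cow 3262, with the highest casein share, was among them in 1 enzyme. HY cow 3075 and LY cow 3369, with casein shares of 26.4% and 26.0%, were among them in none.

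Correlations were computed over the 21 cows for the 28 pairs of the 8 genes, with 100000 permutations, 2-sided, and Benjamini-Hochberg adjustment over the 28. The cows share library composition, so these values describe common variation and nothing more. The adjusted p of Pearson's r was under 0.05 in 16 pairs. ALDOA, TPI1, PGAM1 and ENO1 formed the tightest set, with r from 0.803 to 0.941 in their 6 pairs. The strongest pair was TPI1 and ENO1 (r = 0.941, permutation p = 1e-05, which is the smallest that 100000 permutations can give, rho = 0.930, permutation p = 1e-05, adjusted p = 5.6e-05). When the 2 cows most distant in TPI1 were left out, r was 0.925. In the 16 cows of the lower mapping rate class r was 0.945, and in the 11 libraries with up to 10% casein it was 0.941.

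PGK1 followed ENO1 more closely than the other enzymes, with r = 0.850 (permutation p = 1e-05, rho = 0.804, permutation p = 3e-05, adjusted p = 5.6e-05, r = 0.839 without the 2 most distant cows). LDHA passed the threshold with 5 of 6 other enzymes, and its strongest partner was PGAM1 (r = 0.784, permutation p = 4e-05, rho = 0.688, permutation p = 0.00077, adjusted p = 0.00014, r = 0.668 without the 2 most distant cows). LDHB passed with 2 of 6, of which one was LDHA itself (r = 0.520, permutation p = 0.0161, rho = 0.462, permutation p = 0.0361, adjusted p = 0.0342, r = 0.407 without the 2 most distant cows). That pair fell to r = 0.240 with an adjusted p of 0.642 (permutation test) in the 11 libraries with up to 10% casein. HIF1A passed with none of the 7 enzymes, and r lay between -0.049 and 0.444. Its highest value was with PGK1 (r = 0.444, permutation p = 0.0443, rho = 0.469, permutation p = 0.0339, adjusted p = 0.0690, r = 0.321 without the 2 most distant cows).

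**Figure D2:**
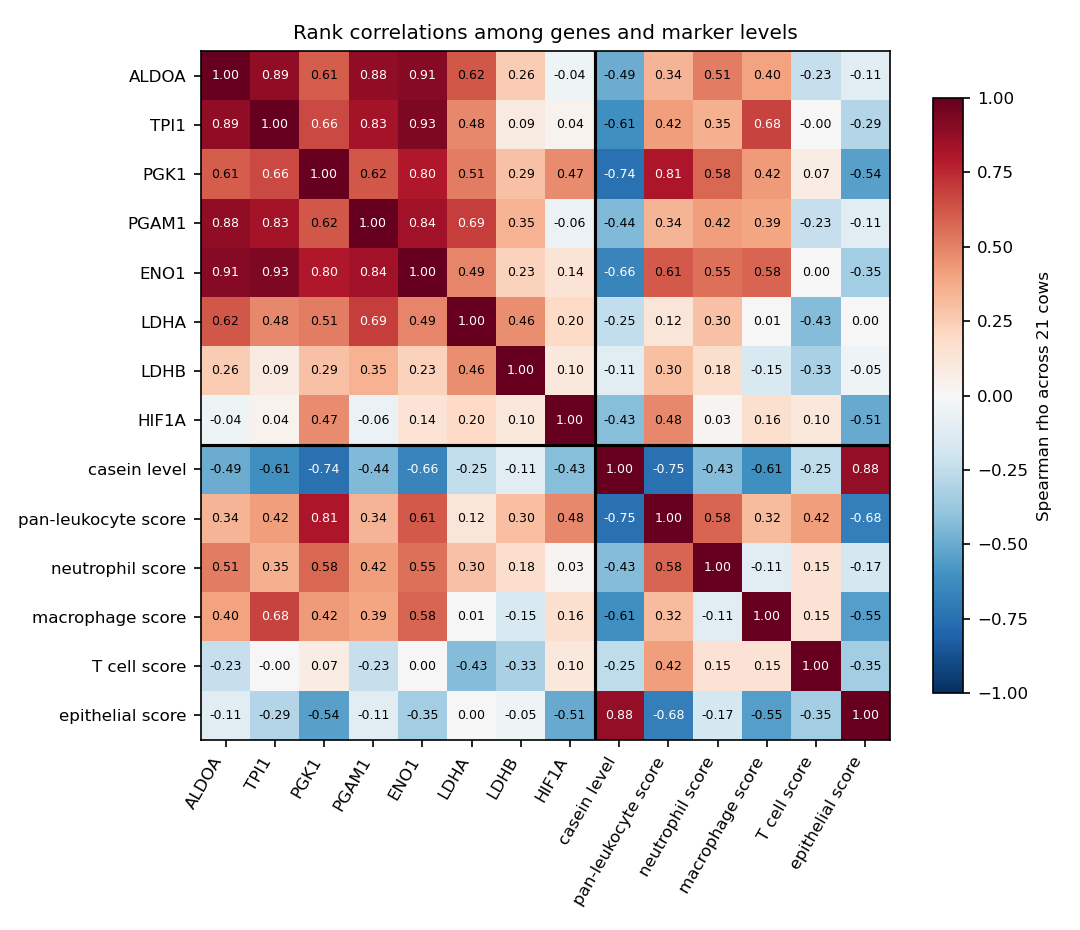
Spearman rho across the 21 cows between the 8 genes and the marker levels of each library, on a colour scale from -1 (blue) to 1 (red). ALDOA, TPI1, PGAM1 and ENO1 form a red block with rho from 0.832 to 0.930, and HIF1A is pale against all of them.

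The casein level of a library, which reflects how much RNA of secretory epithelium it holds, was the variable with the most calls among the 8 genes, 4 of them. It was taken as log2 of the summed CPM of CSN1S1, CSN1S2, CSN2 and CSN3, and it ran from 9.75 to 19.9. ENO1, PGK1, TPI1 and ALDOA were lower in libraries with more casein. In the edgeR quasi-likelihood test with Benjamini-Hochberg adjustment over 12329 genes, 20.9% of all genes were called with an adjusted p under 0.05, 9.59% lower and 11.3% higher, and 4 of the 8 genes were called, all of them lower. An unadjusted p under 0.05 was found for 32.3% of all genes and for 5 of the 8. The median slope of the 8 was -0.11 log2 units per doubling of casein, against -0.013 over all genes with a mean of at least 10 counts.

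ENO1 fell by 12.04% with each doubling of casein (slope -0.19 ± 0.04 SE, adjusted p = 0.00228). PGK1 fell by 9.78% (slope -0.15 ± 0.04, adjusted p = 0.00501). TPI1 fell by 11.1% (slope -0.17 ± 0.04, adjusted p = 0.00702). The plots of level against casein show this decline over both groups, with HY cow 3280 at the lower right. ALDOA fell by 8.65% (slope -0.13 ± 0.04, adjusted p = 0.0334), and its call was lost without HY cow 2814 (adjusted p = 0.0532), HY cow 3235 (0.0526), HY cow 3280 (0.0864) or LY cow 7643 (0.139). Without HY cow 3280 and LY cow 7643 together, an alternative chosen after seeing the data, ENO1 and PGK1 were the genes of the 4 still called, and TPI1 had an adjusted p of 0.0753.

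The remaining genes did not pass. PGAM1 had a slope of -0.083 ± 0.037 (adjusted p = 0.118), HIF1A one of -0.062 ± 0.035 (adjusted p = 0.235), LDHA one of -0.033 ± 0.040 (adjusted p = 0.632) and LDHB one of -0.013 ± 0.027 (adjusted p = 0.790). Within the 16 cows of the lower mapping rate class the slopes were -0.17 for ENO1, -0.16 for PGK1, -0.17 for TPI1 and -0.11 for ALDOA, and ALDOA lost its call (adjusted p = 0.144). The other class held 5 cows, which are few for a slope, and was not fitted on its own. Among the 11 libraries with up to 10% casein the slopes were -0.25 for ENO1, -0.14 for PGK1, -0.21 for TPI1 and -0.25 for ALDOA, and none passed (adjusted p from 0.0984 to 0.157).

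The casein level and the leukocyte scores come from the same libraries, so the slopes on them are not separate measurements. The neutrophil and macrophage scores are means of log2 marker levels. With both added as terms to the casein fit, which was an alternative chosen after seeing the data, the slopes were -0.077 for ENO1, -0.067 for PGK1, -0.036 for TPI1 and -0.072 for ALDOA, and 0 of the 8 genes were called.

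**Figure D3:**
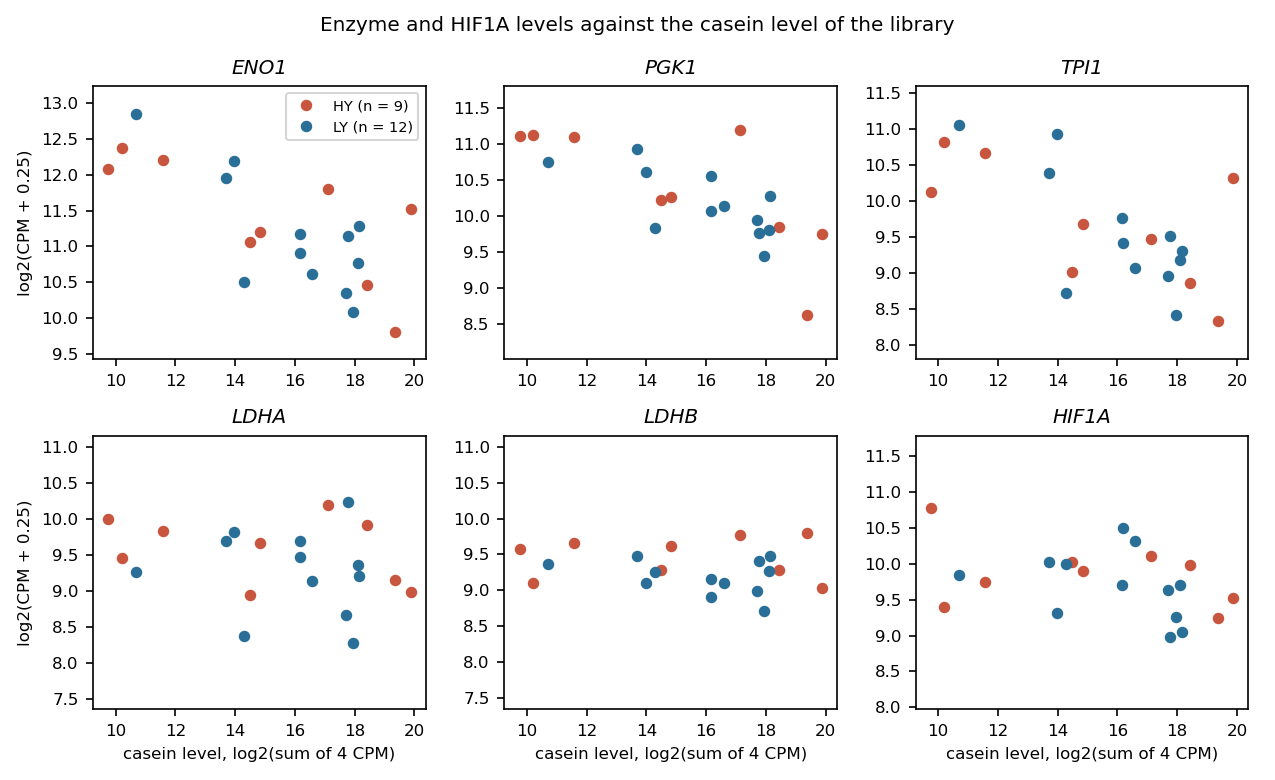
Level of 6 of the genes, as log2(CPM + 0.25), against the casein level of the library, as log2 of the summed CPM of the 4 caseins. Each point is 1 cow, in red for HY (n = 9) and blue for LY (n = 12). ENO1, PGK1 and TPI1 decline with casein, and LDHA, LDHB and HIF1A show no slope that passed the test.

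TPI1 rose with the macrophage score, whose markers include the receptor gene CSF1R and the complement gene C1QA. The slope was 0.80 ± 0.19 log2 units per unit of the score, a 1.74-fold change (edgeR quasi-likelihood test, adjusted p = 0.0093). TPI1 was the 1 gene of the 8 called, against 12.9% of 12326 genes, 6.31% higher and 6.56% lower. An unadjusted p under 0.05 was found for 2 of the 8 and for 27.9% of all genes. Counted over both directions together, the 8 genes were thus called no more often than genes at large. Their median slope was 0.27, against 0.015 over all genes. ENO1 had a slope of 0.59 ± 0.21 (adjusted p = 0.0705) and PGK1 one of 0.33 ± 0.18 (adjusted p = 0.238). Without HY cow 3014, which had the highest neutrophil and the lowest macrophage score, PGK1 and ENO1 were called as well, and without HY cow 3235 ENO1 was. The number of all genes called, 1587, was 691 without HY cow 3280 and 782 without HY cow 2814. The TPI1 slope was 0.72 within the lower mapping rate class (adjusted p = 0.0288). It was 0.65 among the 11 libraries with up to 10% casein, where it did not pass (adjusted p = 0.580), and 0.64 without HY cow 3280 and LY cow 7643 (adjusted p = 0.0626). With the casein level and the neutrophil score as terms, also chosen after seeing the data, it was 0.77 (adjusted p = 0.0958).

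With the neutrophil score, whose markers include S100A8, S100A9 and CXCR2, 7.16% of 12327 genes were called, 5.33% higher and 1.83% lower, and 0 of the 8 genes were called. In the edgeR test 3 of the 8 had an unadjusted p under 0.05, against 21.5% of all genes. PGK1 had the strongest slope by its p, 0.47 ± 0.15 (adjusted p = 0.0620). It passed when genes with a mean under 10 counts were left out (adjusted p = 0.0481). PGK1 also passed with the casein level and the macrophage score as terms, an alternative chosen after seeing the data (slope 0.46, adjusted p = 0.0273). Without HY cow 3280 and LY cow 7643, 0 of the 8 genes were called. In the 11 libraries with up to 10% casein, 0 of the 8 had an unadjusted p under 0.05 (edgeR). ENO1 had a slope of 0.53 ± 0.21 (adjusted p = 0.145) and ALDOA one of 0.45 ± 0.19 (adjusted p = 0.156). With the T cell score 6.55% of genes were called, 3.1% higher and 3.45% lower, and 0 of the 8 genes were called. At an unadjusted p under 0.05 (edgeR) stood 23.1% of all genes and 0 of the 8. The most negative slope on it was that of LDHA, -0.18 ± 0.10 (adjusted p = 0.283).

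A pan-leukocyte score of PTPRC, ITGB2, CORO1A and LCP1 was added after seeing the data. PGK1 rose with it by 0.81 ± 0.16 (adjusted p = 0.000442) and ENO1 by 0.74 ± 0.23 (adjusted p = 0.0169, edgeR). They were the 2 genes of the 8 called, while 31% of all genes were called, 15.9% higher and 15.1% lower. At an unadjusted p under 0.05 (edgeR) stood 3 of the 8 and 41.8% of all genes. Counted over both directions together, the 8 genes were thus called no more often than genes at large. The median slope was 0.33 for the 8 genes and 0.12 over all genes. An epithelial score added in the same way called 20.2% of genes, 11.9% higher and 8.32% lower, and 0 of the 8. An unadjusted p under 0.05 was found for 1 of the 8 and for 33.2% of all genes (edgeR). That gene was PGK1, with a slope of -0.24 ± 0.09 (adjusted p = 0.0591). LDHA and LDHB passed with none of these scores.

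**Figure D4:**
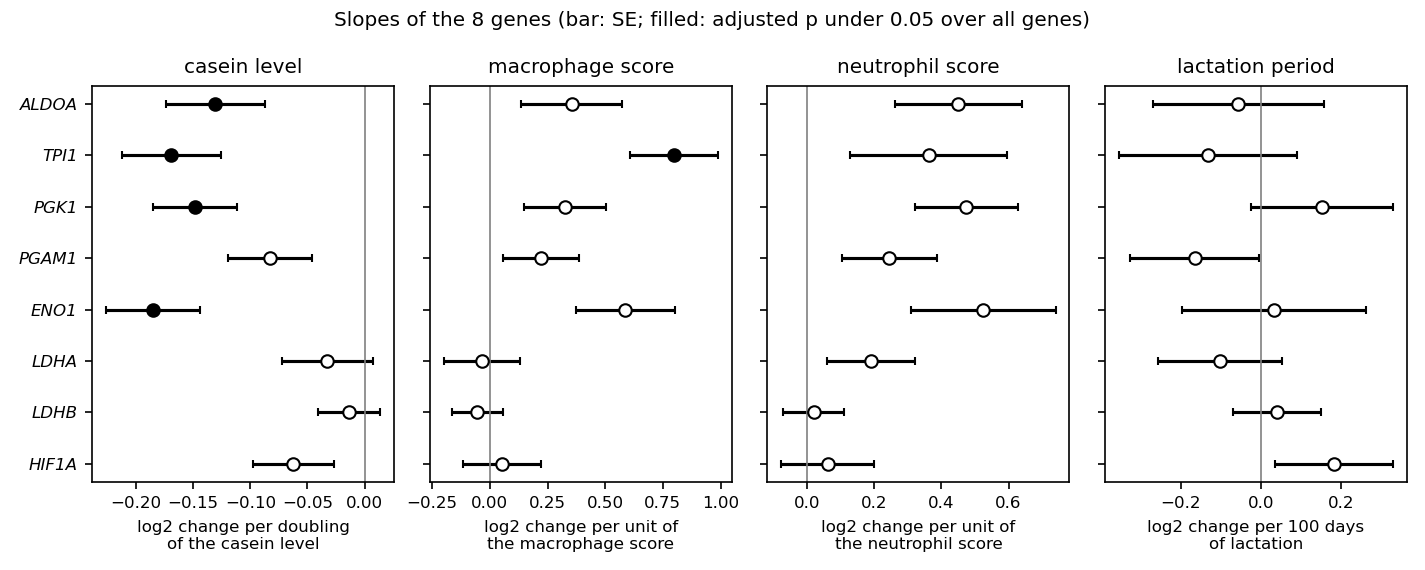
Slope of each gene on casein level, macrophage score, neutrophil score and lactation period, in log2 units on the horizontal axis, with bars of 1 SE over the 21 cows. Filled points passed an adjusted p of 0.05 over all genes, which are ENO1, PGK1, TPI1 and ALDOA for casein and TPI1 for macrophages.

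Some other genes of the pathway were called with the same marker levels, and not all of them in the same direction. Of 21 further glycolysis genes with a count, 7 were called lower and 3 higher with casein, where 9.59% and 11.3% of all genes were, and their median slope was -0.088 over those with a mean of at least 10 counts. HK1, the hexokinase found in most cells, had a slope of -0.18 (adjusted p = 0.000125), PKM, the pyruvate kinase of most tissues, one of -0.18 (adjusted p = 0.00272) and the phosphofructokinase PFKP one of -0.18 (adjusted p = 0.00321). With the macrophage score, where 6.31% of all genes were called higher and 6.56% lower, 5 of the 21 rose and 1 fell, led by HK1 (slope 0.69, adjusted p = 0.00311), PFKP (0.77, adjusted p = 0.00741) and ADPGK (0.49, adjusted p = 0.0141). With the neutrophil score 1 of the 21 was called higher and 1 lower, against 5.33% and 1.83% of all genes. The former was PFKFB3, whose product makes an activator of phosphofructokinase (slope 0.67, adjusted p = 0.00971).

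Of 12 glucose and lactate transporter genes, 3 were called lower and 1 higher with casein, against 9.59% and 11.3% of all genes. SLC2A6 had a slope of -0.33 (adjusted p = 0.000598), the glucose transporter SLC2A1 one of -0.19 (adjusted p = 0.00158) and the lactate exporter SLC16A3 one of -0.21 (adjusted p = 0.00899). The sodium-glucose cotransporter SLC5A1 rose by 0.45 (adjusted p = 3.29e-06). With the neutrophil score, for which 5.33% of all genes were called higher, 2 of the 12 rose and 0 fell. SLC2A3, a glucose transporter of leukocytes, rose by 1.05 (adjusted p = 0.000476), as did SLC16A3 by 0.97 (adjusted p = 0.00441). With the macrophage score 1 of the 12 rose and 1 fell, against 6.31% and 6.56% of all genes. SLC2A5, a fructose transporter, rose by 0.72 (adjusted p = 0.0251) and SLC5A1 fell by 1.39 (adjusted p = 0.0300).

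The pentose phosphate pathway branches off glycolysis. Of its 7 genes, 3 were called lower with casein (9.59% of all genes) and 3 were called higher with the macrophage score (6.31% of all genes). Among both were PGD (slope -0.15 on casein, adjusted p = 0.00141, and 0.60 on macrophages, adjusted p = 0.00943) and RPIA (-0.12, adjusted p = 0.0358, and 0.54, adjusted p = 0.0352). Of 13 genes for the entry of pyruvate into mitochondria, 3 were called higher with casein and 0 lower, against 11.3% and 9.59% of all genes. The 3 were the pyruvate carrier gene listed as BRP44 (0.29, adjusted p = 0.000376), pyruvate carboxylase PC (0.20, adjusted p = 0.0151) and PDHA1 (0.094, adjusted p = 0.0303). With the neutrophil score, for which 1.83% of all genes were called lower, 4 of the 13 were called lower, all of them subunits of pyruvate dehydrogenase, namely PDHA1 (-0.39, adjusted p = 0.0135), PDHB (-0.37, adjusted p = 0.0167), DLD (-0.37, adjusted p = 0.0266) and PDHX (-0.36, adjusted p = 0.0266). With the macrophage score 1 of the 13 was called lower, BRP44 (-0.96, adjusted p = 0.0284), against 6.56% of all genes. With the T cell score 2 of the 13 were called lower, against 3.45% of all genes. They were BRP44 (-0.62, adjusted p = 0.00894) and BRP44L (-0.41, adjusted p = 0.0148).

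HIF1A itself passed with none of the marker levels, but 6 of 18 known HIF1A targets outside glycolysis rose with the neutrophil score and 0 fell, against 5.33% and 1.83% of all genes. Among them were ANKRD37 (0.97, adjusted p = 0.000581), DDIT4 (1.01, adjusted p = 0.00166), the growth factor VEGFA (1.11, adjusted p = 0.00684) and KDM3A (0.60, adjusted p = 0.0191). With casein 4 of the 18 were called lower, against 9.59% of all genes, namely BNIP3 (-0.23, adjusted p = 0.000438), the haem oxygenase HMOX1 (-0.19, adjusted p = 0.000761), ADM (-0.21, adjusted p = 0.00763) and HILPDA (-0.18, adjusted p = 0.0108). With the macrophage score, for which 6.31% of all genes were called higher and 6.56% lower, 3 of the 18 rose, namely HILPDA (0.93, adjusted p = 0.00135), HMOX1 (0.81, adjusted p = 0.00221) and ADM (0.85, adjusted p = 0.0298), and 2 fell, namely RIOK3 (-0.55, adjusted p = 0.0173) and NDRG1 (-0.65, adjusted p = 0.0226).

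Of 11 regulators of HIF1A with a count, 2 were called higher and 1 lower with casein, against 11.3% and 9.59% of all genes. CITED2, which competes for a coactivator of HIF1A, was higher with casein (0.18, adjusted p = 0.00111), as was EGLN1, the prolyl hydroxylase that marks HIF1A for degradation (0.13, adjusted p = 0.00411), and HIF1AN, the asparagine hydroxylase, was lower (-0.13, adjusted p = 0.00961). CITED2 and EGLN1 were the 2 of the 11 called lower with the macrophage score (-0.72, adjusted p = 0.00755, and -0.53, adjusted p = 0.0184; 6.56% of all genes) and with the T cell score (-0.35, adjusted p = 0.0363, and -0.29, adjusted p = 0.0377; 3.45% of all genes). With the T cell score 1 of the 21 further glycolysis genes was called lower, against 3.45% of all genes. It was ALDOC, an aldolase known from brain (-0.40, adjusted p = 0.0200). CREBBP, a coactivator, was the 1 of the 11 regulators called higher with the neutrophil score (0.55, adjusted p = 0.0110), against 5.33% of all genes. All of these are edgeR slopes in log2 units per doubling of casein or per unit of a score, adjusted over all genes.

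No enzyme passed the test against the RNA level of HIF1A across cows. With the level of HIF1A as the variable, 0.349% of 12332 genes were called higher and 1.39% lower, 1.74% in all, and 0 of the 7 enzymes were called. An unadjusted p under 0.05 (edgeR) was found for 22.5% of all genes and for 0 of the 7. PGK1 came nearest, with a slope of 0.54 ± 0.30 per log2 unit of HIF1A (adjusted p = 0.291). ALDOA had a slope of -0.076 ± 0.359, TPI1 one of -0.098 ± 0.412 and ENO1 one of 0.18 ± 0.41. Within the lower mapping rate class the slope of PGK1 was 0.65 (unadjusted p = 0.0709, edgeR). One of the 18 targets outside glycolysis was called, the endoplasmic oxidase ERO1L, with a slope of 1.23 ± 0.27 (adjusted p = 0.0354).

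The genes most like HIF1A over the 21 cows, by Spearman rho among 8275 genes with a mean of at least 50 counts, were OSTM1 (rho = 0.917), CLEC4D (0.864), QKI (0.835), PAQR3 (0.834) and ERO1L (0.826). CLEC4D is a receptor of myeloid cells. The genes most like the mean log2 level of the 7 enzymes were the glycolytic isomerase GPI (0.948), the actin-capping gene CAPG (0.921), E2F4 (0.914), PHC2 (0.910) and HMOX1 (0.909). These 10 genes were chosen for their likeness, so their rho values are a description with no test.

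No gene of the list differed detectably between HY and LY. In the edgeR quasi-likelihood test 0% of 12333 genes were called, 580 (4.7%) had an unadjusted p under 0.05, and DESeq2 called 1 gene. Among the 8 genes 0 were called and 0 had an unadjusted p under 0.05. All 8 slopes were above 0, with a median of 0.23 log2 units against 0.053 over all genes with a mean of at least 10 counts. PGK1 was highest at 0.32 ± 0.29 (1.25-fold), followed by PGAM1 at 0.29 ± 0.26, LDHB at 0.28 ± 0.17, LDHA at 0.27 ± 0.25, ENO1 at 0.20 ± 0.37, HIF1A at 0.16 ± 0.23, TPI1 at 0.11 ± 0.36 and ALDOA at 0.053 ± 0.345. LDHB had the smallest unadjusted p of the 8, 0.116 in edgeR. The slope of ALDOA fell as low as -0.038 when single cows were left out and was below 0 without HY cow 2814, 3057 or 3235 or LY cow 2864, 3135, 3264 or 3272. That of TPI1 was -0.060 without HY cow 2814 and -0.025 without HY cow 3057. Within the lower mapping rate class all 8 were again above 0, with a median of 0.29, and none passed. Among the 11 libraries with up to 10% casein the median was 0.13, with ALDOA at -0.12 and TPI1 at -0.048, and none passed.

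LDHB was also the gene nearest to milk yield itself. The study's own model, the regression of the breeding value on the log2 level, was refitted here. In this refit the slope of LDHB was 399.8 ± 189 (SE) in units of the breeding value per log2 unit (unadjusted p = 0.0473, linear regression fitted over all genes, adjusted p = 0.9999). Of 12333 genes 2.49% had an unadjusted p under 0.05 and 0% passed the adjustment, beside which LDHB was 1 of the 8 genes. The paper reports a larger number of genes at that unadjusted level in its simple regression. The LDHB slope was 401 within the lower mapping rate class (unadjusted p = 0.0728) and 379 with parity and lactation period as covariates (unadjusted p = 0.0670). With size factors of the DESeq2 type, in robust regression or without libraries over 10% casein, 0 of the 8 genes had an unadjusted p under 0.05. With each cow left out in turn, the unadjusted p of LDHB ran from 0.0292 to 0.127 (linear regression). The other 7 genes had slopes from 31.5 for TPI1 to 121 for HIF1A, none with an unadjusted p under 0.05. Milk yield as a term in edgeR called 13 genes and 0 of the 8.

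The other milk traits gave no call either. Breeding values of milk fat and milk protein called 0% of genes each, with 2.87% and 2.77% at an unadjusted p under 0.05 in edgeR, and 0 of the 8 genes reached that level. Milk solid called 0.0324% of genes, which were all lower, with 3.13% at an unadjusted p under 0.05, and 0 of the 8 genes reached either level. The largest slopes on milk protein were 0.20 ± 0.15 log2 units per SD of the trait for PGK1 and 0.18 ± 0.20 for ENO1, and LDHB had the smallest unadjusted p, with 0.15 ± 0.08 (p = 0.0777 in edgeR).

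Lactation period moved no gene of the list past the threshold. In edgeR 0.0243% of 12333 genes were called, all lower, 22.3% had an unadjusted p under 0.05, and DESeq2 called 865 genes. The edgeR count of 3 depended on single cows, since it was 428 without LY cow 3407, 358 without HY cow 2814 and 257 without HY cow 3057, 0 without any 1 of 12 other cows, and 1 to 5 without any 1 of the rest. None of the 8 genes was called by either tool, and 0 had an unadjusted p under 0.05 in edgeR. HIF1A had the highest slope, 0.18 ± 0.15 log2 units per 100 days, and PGAM1 the lowest, -0.17 ± 0.16. The other slopes were 0.15 ± 0.18 for PGK1, 0.040 ± 0.109 for LDHB, 0.033 ± 0.230 for ENO1, -0.057 ± 0.214 for ALDOA, -0.10 ± 0.15 for LDHA and -0.13 ± 0.22 for TPI1. Within the lower mapping rate class they ran from -0.16 for TPI1 to 0.19 for PGK1.

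The slopes on lactation period were also compared between HY and LY. The interaction called 0% of genes, and 2.61% had an unadjusted p under 0.05 in edgeR. LDHA was the 1 gene of the 8 at that level, with a slope 0.75 ± 0.28 log2 units per 100 days higher in HY (unadjusted p = 0.0136, adjusted p = 1). This difference was 0.93 within the lower mapping rate class and 0.43 in the 11 libraries with up to 10% casein.

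The ratio of LDHA to LDHB counts needs no library scaling, and it was compared between cows only, since the genes differ in length. LDHA had more counts than LDHB in 13 cows, 6 HY and 7 LY. The log2 ratio ran in HY from -0.64 in cow 3280 through a median of 0.18 to 0.65 in cow 3075. In LY it ran from -0.87 in cow 3272 through a median of 0.056 to 0.83 in cow 2893. The LY cows thus held both ends, and the HY range lay inside theirs. HY had a mean of 0.12 ± 0.41 (SD, n = 9), LY had a mean of 0.085 ± 0.525 (SD, n = 12), and the difference was 0.039 (exact permutation test over 293930 assignments, 2-sided p = 0.854, adjusted p = 0.919 over 10 relations). Most of the variation of the ratio came with LDHA, whose log2 level had a variance of 0.30 against 0.083 for LDHB.

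None of the 9 relations of the ratio with cow or library measures passed. The strongest by r was with lactation period (r = -0.311, permutation p = 0.169, rho = -0.322, permutation p = 0.155, adjusted p = 0.848, r = -0.266 without the 2 most distant cows). With the neutrophil score r was 0.279 (permutation p = 0.219, rho = 0.232, permutation p = 0.306, adjusted p = 0.848, r = 0.041 without the 2 most distant cows). With the T cell score r was -0.260 (permutation p = 0.254, rho = -0.319, permutation p = 0.158, adjusted p = 0.848, r = -0.451 without the 2 most distant cows). HY cow 3280 weighed on this relation, and without it r was -0.514 (permutation p = 0.0204, rho = -0.505, permutation p = 0.0244, adjusted p = 0.204), beyond the -0.405 of lactation period without the same cow (permutation p = 0.0753, adjusted p = 0.376). That was the extreme of the 21 fits leaving out 1 cow each, in which r with the T cell score ran from -0.514 to -0.177 (permutation p from 0.0204 to 0.456). With the casein level r was -0.160 (permutation p = 0.490, rho = -0.196, permutation p = 0.395, adjusted p = 0.902, r = -0.039 without the 2 most distant cows). With the 4 milk traits and the macrophage score r lay between -0.137 and 0.117 (permutation test, adjusted p from 0.902 to 0.919).

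**Figure D5:**
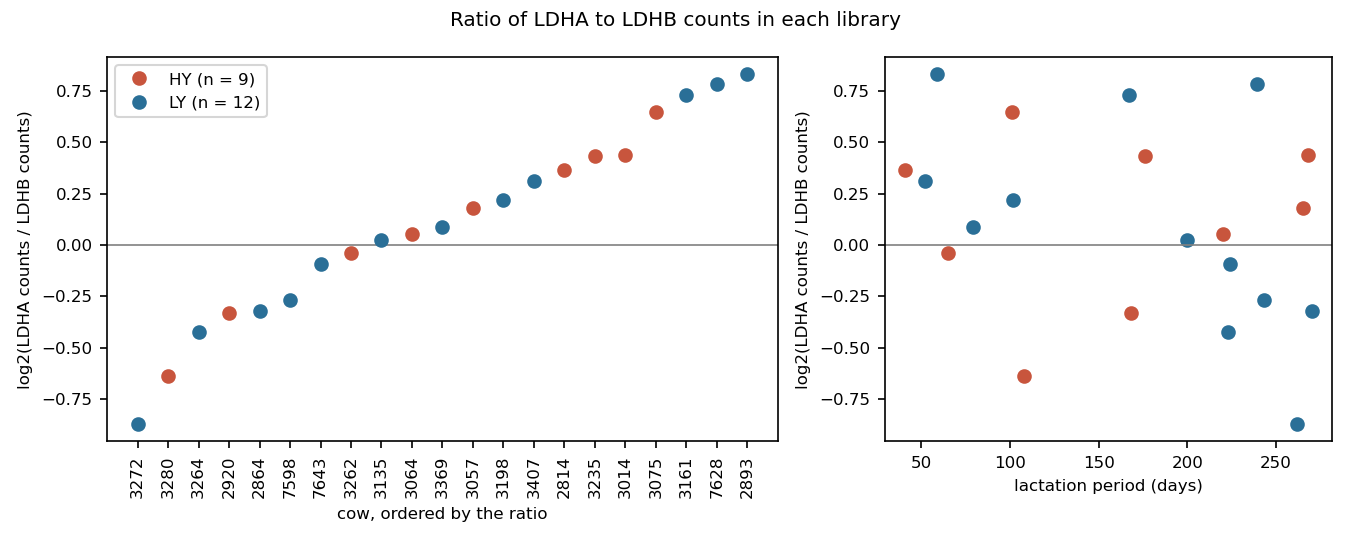
Log2 ratio of LDHA to LDHB counts in each of the 21 cows, ordered by the ratio on the left and against lactation period in days on the right, in red for HY (n = 9) and blue for LY (n = 12). HY and LY cows are interspersed along the order, which runs from -0.87 to 0.83.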

How the data were processed

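The authors deposited 1 table of raw read counts per gene for each cow. Per the labels, reads were trimmed with Trimmomatic, mapped with Bowtie2 and TopHat2 and counted with HTSeq. The genome was bosTau7, and versions and the strand setting are not given in the sources used here. Alignments to several places, other status rows and a row without a gene name (0.0232% to 0.0686% of reads) were left out, and 23 symbols had become dates. The 12333 genes with a count were fitted with edgeR 4.0.16 (R 4.3.3, TMM, quasi-likelihood), with DESeq2 1.42.0 as an alternative, and tested on simulated data. Milk yield was regressed on log2(CPM + 0.25). Scores are mean log2 levels of markers with a mean of at least 10 counts. The genes of a score or of the casein level were not tested against that same measure. A call is an adjusted p under 0.05 over all genes. Each cow is 1 library of a separate animal. All pairs differed beyond sampling noise. A lower (16 cows) and a higher (5 cows) mapping rate class, formed from rates in the study's supplement, served as a technical split. Results were recomputed within the lower class only, and the classes were not compared with each other. No source used here names them as sequencing batches. The higher class held 1 HY and 4 LY cows, so the classes were shared unevenly between the groups. Pairs with HK2 and GAPDH could not be made. Genes, lists and tests were chosen with earlier results of these data known. Of each pathway list at most 5 called genes of lowest p were named, and the 5 genes most like each pattern. Some genes of these lists that the rule would name are not reported here.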

Additional observations from a re-analysis of the deposited data

How the results depend on the processing

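No paired analysis was possible because the replicate numbers only count cows within HY and LY and pair no animals. Over 1554 values of the 8 genes under other settings, 20 lost a call, 6 gained one and 0 called values changed sign, and 70 of 1393 uncalled values changed sign. Without libraries over 10% casein, calls fell to 129 for casein, 28 for the neutrophil score, 0 for the macrophage score, 73 for the T cell score, 0 for HIF1A, 0 for the pan-leukocyte score, 2 for the epithelial score, 0 for lactation and 0 for milk solid, and 0 of the 8 genes remained called with casein, macrophages or pan-leukocyte genes. Fewer cows entered that fit. Within the lower mapping rate class the counts were 1401 for casein, 117 for the T cell score, 1539 for the epithelial score, 1 for HIF1A, 0 for lactation and 8 for milk solid. With genes under a mean of 10 counts left out, lactation and milk solid called 0, and 1 of the 8 genes was called for the neutrophil and 1 for the epithelial score. With cell scores as further terms the counts were 529 for casein (0 of the 8 genes), 412 for neutrophils (1 gene), 118 for macrophages (0 genes), 16 for HIF1A and 1 for lactation. Group and parity as covariates left 0 for lactation. Without caseins and whey genes HIF1A called 121. Without HY cow 3280 and LY cow 7643, casein called 1434 (2 of the 8 genes) and macrophages 681 (0 genes). DESeq2 called 1 gene for HY against LY and 865 for lactation, and edgeR called 13 for milk yield. Leaving out each cow in turn gave 1912 to 2854 calls for casein with 3 to 4 of the 8 genes, 691 to 1819 for macrophages with 1 to 3, and 0 to 428 for lactation with 0. The cause of these shifts was not tested. Of the 28 pairs, 12 to 16 had an adjusted p under 0.05 under every setting tried, and the 6 pairs of ALDOA, TPI1, PGAM1 and ENO1 passed in each. Without libraries over 10% casein the difference of the LDHA to LDHB ratio was -0.040. The lowest count of the 8 genes in a cow was 1638 (TPI1), so counting error was small for them.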
